A study of Homo sapiens with 6 samples.

Results

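MAL and 9 related genes of the MARVEL-domain membrane proteins were followed in HK-2 cells, an established human line derived from kidney proximal tubule epithelium. The 10 genes are 10 of the 34157 genes in the deposited table and were found by symbol. MAL was picked because it was much lower after GDF5, so its difference between the groups is given as a description with no test. The other 9, MAL2, MALL, PLLP, MYADM, CMTM3, CMTM4, CMTM6, CMTM7 and CMTM8, were taken as its relatives. RNA was sequenced in 3 libraries of untreated wild-type cells, called control, and in 3 libraries of cells given 100 ng/ml GDF5, a ligand of the bone morphogenetic protein (BMP) family, for 48 h. A single line stands here for tubule epithelium. The series title places the work in diabetic kidney disease and partial epithelial-mesenchymal transition of tubule cells.

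MARVEL-domain proteins cross the membrane several times and work in membrane apposition and in cargo transport. MAL is a small proteolipid of lipid rafts that carries cargo to the apical surface of epithelial cells. It is also found in T lymphocytes, in myelin-forming cells and, in kidney, in distal parts of the tubule. MAL2 serves the indirect route, in which cargo is taken from the basolateral to the apical side. The CMTM proteins are named for chemokine-like factor and bind other membrane proteins, among them PD-L1 for CMTM6 and the EGF receptor for CMTM8.

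The upstream DNA of the genes that stood farthest apart between the groups is printed before the values, so that sequence and expression can be read together. Each run is the 250 bases before a RefSeq transcript start on GRCh38.p14, written 5′ to 3′ on the strand of the gene. Capitals mark GGCGCC, a GC-rich element bound by SMAD1 and SMAD5, GTCTG or its complement CAGAC, a SMAD half-site, and CAGGTG or its complement CACCTG, an E-box bound by SNAI-type repressors. The MAL window lies on chr2:95025458-95025707 (plus strand). GENCODE 29 starts the MAL gene at 95025677, inside this window and ahead of its GGCGCC. MALL has a pair of starts, with windows at chr2:110115823-110116072 and chr2:110118140-110118389 (minus strand). GENCODE 29 starts the MALL gene at 110116566, between these windows and inside neither. The CMTM8 window lies on chr3:32238430-32238679 (plus strand).
MAL: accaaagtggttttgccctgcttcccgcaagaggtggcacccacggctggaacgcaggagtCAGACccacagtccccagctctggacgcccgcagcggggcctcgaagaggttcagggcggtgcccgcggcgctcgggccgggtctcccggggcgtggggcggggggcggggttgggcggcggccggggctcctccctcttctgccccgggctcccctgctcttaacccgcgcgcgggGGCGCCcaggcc
MALL, inner start: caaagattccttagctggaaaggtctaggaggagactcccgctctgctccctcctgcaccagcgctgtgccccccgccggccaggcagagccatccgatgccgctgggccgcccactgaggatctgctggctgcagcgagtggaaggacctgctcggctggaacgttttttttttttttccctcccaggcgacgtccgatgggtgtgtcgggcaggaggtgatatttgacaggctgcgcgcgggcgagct
MALL, outer start: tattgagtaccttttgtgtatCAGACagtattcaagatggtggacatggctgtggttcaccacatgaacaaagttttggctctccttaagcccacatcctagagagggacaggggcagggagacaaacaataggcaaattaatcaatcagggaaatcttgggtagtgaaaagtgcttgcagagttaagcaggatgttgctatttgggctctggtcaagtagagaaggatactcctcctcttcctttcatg
CMTM8: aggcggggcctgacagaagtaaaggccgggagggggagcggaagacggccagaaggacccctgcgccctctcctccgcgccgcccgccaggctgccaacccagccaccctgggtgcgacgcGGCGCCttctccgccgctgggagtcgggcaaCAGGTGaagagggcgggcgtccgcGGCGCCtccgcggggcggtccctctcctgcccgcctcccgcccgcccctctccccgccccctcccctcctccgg

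The MAL window held GGCGCC once, beginning 12 bases upstream of the start, and CAGAC once, beginning 189 bases upstream. The CMTM8 window held GGCGCC at 129 and 74 bases upstream and CAGGTG at 98 bases upstream. Of the MALL windows, the outer one held CAGAC at 229 bases upstream and the inner one held none of these letters. GC made up 75.2% of the MAL window and 77.2% of the CMTM8 window, against 62.8% and 44.4% of the inner and outer MALL windows. Windows were matched for 9 of the 10 genes, all but MAL2. GGCGCC occurred in a window of 5 of the 9 (MAL, PLLP, CMTM4, CMTM7 and CMTM8), the SMAD half-site in 4 and the E-box in 4. Counted the same way, over any window of a gene, 19.0% of 27303 genes held GGCGCC, 42.8% held the half-site and 20.6% held the E-box on either strand. Over the 35114 single windows the shares were 16.4%, 38.0% and 17.5%. GGCGCC was present both in genes that were lower after GDF5, such as CMTM8, and in genes that did not pass the test, such as CMTM4 and CMTM7.

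Depth was 43.9 to 56.0 M reads (M for mega) per library, as recovered from the RPKM. Chi-square per gene between libraries, on reads divided by 2, was 1.56 to 4.73 within groups and 16.2 to 24.7 between them. GDF5 replicate 1 stood apart from the other two of its group, at 4.12 and 4.73 against 1.56 between those. Reads of mitochondrial DNA-encoded genes were 7.92 to 8.71% of reads in control and 10.1 to 10.3% in GDF5 libraries. All 5 BMP response genes checked (ID1, ID2, ID3, SMAD6 and SMAD7) rose, by 0.74 to 3.06 on the log2 scale. Of 16 proximal tubule markers 14 were in the table and 4 reached a mean of 1 RPKM, PAX8 highest at 32.1 RPKM, while the endocytic receptor LRP2 was at 0.00092 RPKM in control. The 14 summed to 55.8 to 62.4 RPKM in control and to 46.2 to 48.7 RPKM in GDF5 libraries, and 3 of the 4 tested (PAX8, GATM and GGT1) fell, GGT1 in only 4 of 12 alternatives, where 17.5% of all tested genes fell. ALPL, below the tested level, was at 0.107 ± 0.0410 and 0.315 ± 0.118 RPKM (SD, n = 3 each), with the groups apart. Whether each library had a culture of its own is not said in the labels, so the spread behind every p-value may be technical.

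MAL (ENSG00000172005, chromosome 2, 95025677 to 95053996, plus strand) was at 17.1, 13.7 and 17.9 RPKM in control replicates 1 to 3 and at 2.89, 3.50 and 3.51 RPKM in GDF5 replicates 1 to 3. RPKM is reads scaled to exon length in kilobases and to library depth. The groups were far apart: the lowest control library lay above the highest GDF5 library by more than the whole range within either group. The means were 16.2 ± 2.24 and 3.30 ± 0.358 RPKM (SD, n = 3 each), 4.92-fold lower after GDF5. On the log2(RPKM + 1) scale, on which all log2 changes are given unless stated, the difference was -2.00 with a standard error of 0.10, the lowest of the 12476 genes tested. These are the values for which MAL was chosen. Behind them stood 1192, 897 and 1458 reads in control and 235, 223 and 277 in GDF5 libraries, so counting error was small beside the difference. On the recovered reads, with limma-voom, the log2 change was -2.25 with a standard error of 0.13, and the authors' deposited table gave -2.24. In bulk RNA, fewer cells that express MAL and less MAL RNA per cell cannot be told apart.

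**Figure D1:**
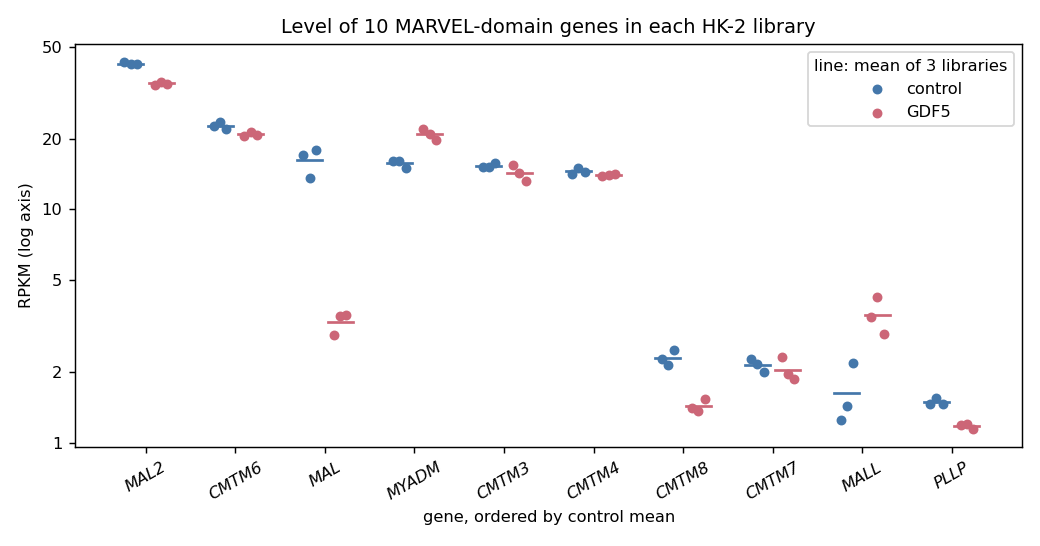
RPKM (log axis) of the 10 genes in each of the 3 control and 3 GDF5 libraries, with points for libraries and lines for group means, ordered by control mean. MAL drops from the band near 16.2 RPKM to 3.30 RPKM and lands beside MALL, which is at 3.54 RPKM after GDF5.

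Because MAL marks distal tubule in kidney, distal nephron markers were read beside it. Of 18 such markers 13 were in the table and 2, SCNN1A and CLDN16, reached a mean of 1 RPKM. The summed level of the 13 was 7.86 to 9.15 RPKM in control and 5.19 to 5.61 RPKM in GDF5 libraries, and both SCNN1A, an epithelial sodium channel subunit, and CLDN16, a tight junction protein, fell, by 0.61 and 0.34 on the log2 scale (limma adjusted p = 0.000499 and 0.0222). The thick limb transporter SLC12A1 was at 0.0048 RPKM in control. SCNN1A was called in all 12 alternatives and CLDN16 in 6. CLDN16 was missed without control replicate 1 or 3 or GDF5 replicate 1 or 3 (0.0524 to 0.0727). It was also missed with no filter and with a replicate block, and its highest limma adjusted p was 0.0883. Over all genes tested 17.5% were lower. Of 10 T cell and oligodendrocyte markers, read because MAL is expressed in those lineages, 6 were in the table, with sums of 18.7 to 21.2 RPKM in control and 17.5 to 18.9 RPKM in GDF5 libraries, mostly from CNP at 14.5 RPKM. Of the 3 tested, CNP was not called (limma adjusted p = 0.447), while LCK, a T cell kinase that is also among the candidate partners, and MBP, a myelin protein, fell, by 0.30 and 0.24 on the log2 scale (limma adjusted p = 0.0389 and 0.0180). LCK was called in 4 of 12 alternatives and MBP in 7. CD3G, of the T cell receptor complex, was at 0.043, 0 and 0.019 RPKM in control replicates 1 to 3. It was listed at 0 in all GDF5 libraries, so the groups overlapped at the floor. Of 8 fibroblast markers 3 reached 1 RPKM, and their sums, mostly LUM at 71.8 RPKM, overlapped between the groups (77.3 to 83.8 and 74.7 to 79.5 RPKM). Of these 3 the collagen gene COL1A1 alone was called, where 7.48% of all tested genes rose. It went from 3.07 ± 0.232 to 3.83 ± 0.152 RPKM (SD, n = 3 each), up by 0.25 on the log2 scale (limma adjusted p = 0.0179). The call held in 9 of 12 alternatives, not with no filter, nor without GDF5 replicate 2 or 3 (0.0594 and 0.0666). DCN and LUM lay lower, by 0.16 and 0.075, and were not called (limma adjusted p = 0.0931 and 0.209). The DCN groups did not overlap. The part of these marker lists in the MAL difference was not tested.

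Of the 9 genes other than MAL, 5 changed at an adjusted p under 0.05 by limma, 2 higher (MALL and MYADM) and 3 lower (MAL2, CMTM8 and PLLP). Over all 12476 tested genes 25.0% changed, 7.48% higher and 17.5% lower. With median-of-ratios scaling 4 of the 9 were called, 2 higher and 2 lower, against 12.9% of all genes higher and 9.97% lower. The median log2 change was -0.096 over the 9 and -0.050 over all genes tested. Libraries of the groups did not overlap for 7 of the 9, 2 higher and 5 lower, against 43.9% of all genes tested, 13.5% higher and 30.4% lower. That count used RPKM as deposited, where the median-of-ratios factors were 1.02 to 1.03 in control and 0.980 to 0.985 in GDF5 libraries. It was not repeated after scaling, so narrow gaps such as those of CMTM4 and CMTM6 may not hold. The authors' deposited table called 3 of the 9, MALL and MYADM higher and MAL2 lower. Its share over all the genes it lists was 8.73%, 4.91% higher and 3.82% lower. That share covers 34156 genes, most of them below the tested level that all 9 reached. It is therefore a low mark to set beside the 9, unlike the limma shares. All 10 genes reached the mean of 1 RPKM needed for testing.

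MALL, the MAL-like protein of rafts and caveolin-rich membranes, moved opposite to MAL. This gene (ENSG00000144063, chromosome 2, 110083870 to 110116566, minus strand) was at 1.26, 1.44 and 2.19 RPKM in control and at 3.47, 4.23 and 2.92 RPKM in GDF5 libraries. Control replicate 3 was the highest control and GDF5 replicate 3 the lowest GDF5 library, and the groups did not overlap. The means of 1.63 ± 0.496 and 3.54 ± 0.657 RPKM (SD, n = 3 each) gave a 2.18-fold rise, and MALL rose by 0.80 on the log2 scale (standard error 0.15, limma adjusted p = 0.01001). Its change lay at percentile 99.7 of all tested genes, and on recovered reads it was 1.16. The call ended when genes of any level were tested (limma adjusted p = 0.0536). Of the 50-base words in MALL transcripts 16.1% also occur in transcripts of other genes, while no word of MAL does, so the MALL level depends on how the authors counted shared reads.

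The ratio of MAL to MALL, both per length, summarises the pair within each library. It was 13.6, 9.53 and 8.17 in control and 0.832, 0.827 and 1.20 in GDF5 libraries. MAL therefore outweighed MALL several-fold in every control library, and the pair was near parity after GDF5. The exon length implied by the RPKM was 82.8% of that in GENCODE 29 for MALL and 99.7% for MAL. Which of the pair was higher after GDF5 thus depends on the length used. Against MAL2 the ratio of MAL was 0.327 to 0.426 in control and 0.0842 to 0.102 after GDF5. These ratios hold the MAL values that chose the gene and carry no test.

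MAL2 (ENSG00000147676, chromosome 8, 119165034 to 119245673), the transcytosis relative, was the highest of the 10 genes in both groups. Its RPKM was 42.8, 41.9 and 42.1 in control and 34.3, 35.4 and 34.6 after GDF5, tight groups that stood well apart. MAL2 fell by 0.28 on the log2 scale (standard error 0.03, limma adjusted p = 0.000675), from 42.3 ± 0.476 to 34.7 ± 0.552 RPKM, or 1.22-fold. With median-of-ratios scaling the change was -0.21 (limma adjusted p = 0.00208). MAL2 thus changed in the direction in which MAL lay, at a far smaller size.

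PLLP, plasmolipin, a myelin proteolipid that also sits in kidney membranes, was low. Its RPKM (ENSG00000102934, chromosome 16, 57248547 to 57284687, minus strand) was 1.47, 1.55 and 1.46 in control and 1.20, 1.20 and 1.15 in GDF5 libraries. The groups did not overlap, with means of 1.49 ± 0.0456 and 1.18 ± 0.0295 RPKM (SD, n = 3 each), 1.26-fold lower after GDF5. On recovered reads, with limma-voom, the log2 change was -0.27, against -0.22 for MAL2. On log2(RPKM + 1), which understates changes at this low level, PLLP changed by -0.19 (standard error 0.05, limma adjusted p = 0.0400). That call held in 3 of 12 alternatives and ended in the other 9, among them median-of-ratios scaling (limma adjusted p = 0.0811) and leaving out any 1 library (0.0752 to 0.125). The exons counted for PLLP span 8720 bases in GENCODE 29, of which 1733 lie over exons of ARL2BP on the opposite strand. ARL2BP was at 1.34 ± 0.174 RPKM in control and 1.17 ± 0.242 RPKM after GDF5 (SD, n = 3 each). Whether strand was used in counting is not given in the sources used here, so reads of PLLP and ARL2BP may not have been kept apart.

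MYADM, a raft protein needed for Rac1 targeting and cell spreading, was the other gene that rose. MYADM (ENSG00000179820, chromosome 19, 53866223 to 53876437, plus strand) was at 16.1, 16.1 and 15.1 RPKM in control and at 22.2, 21.1 and 19.8 RPKM in GDF5 libraries. All GDF5 libraries lay above all control libraries. The rise was from 15.8 ± 0.575 to 21.0 ± 1.18 RPKM, 1.33-fold, a log2 change of 0.39 (standard error 0.05, limma adjusted p = 0.00173). The authors' deposited table gave 0.48 on its own log2 scale.

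The CMTM genes lie in a pair of clusters. CMTM8, CMTM7 and CMTM6 follow each other on chromosome 3, and CMTM3 and CMTM4 lie 857 bases apart on chromosome 16 (GENCODE 29, GRCh38). Of these 5 genes CMTM8 alone passed the test. CMTM8, which promotes internalisation of the EGF receptor, was at 2.28, 2.16 and 2.49 RPKM in control and at 1.403, 1.36 and 1.54 RPKM after GDF5. The groups did not overlap, on 114 to 163 and 70 to 98 reads per library. CMTM8 (ENSG00000170293, chromosome 3, 32238679 to 32370325, plus strand) fell by 0.44 on the log2 scale (standard error 0.06, limma adjusted p = 0.00288), 1.61-fold by the means of 2.31 ± 0.165 and 1.44 ± 0.0947 RPKM. The call held in all 12 alternatives, with adjusted p up to 0.0163, while the authors' deposited table gave an adjusted p of 0.0619.

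CMTM7, a tumour suppressor that acts in early endosomes, starts 21345 bases beyond the end of CMTM8. Its RPKM was 2.28, 2.17 and 2.02 in control and 2.33, 1.98 and 1.87 after GDF5, and the groups overlapped. The log2 change was -0.047, with a 95% interval of -0.21 to 0.12 (limma adjusted p = 0.659). CMTM6, which keeps PD-L1 at the cell surface, was the second highest gene by mean RPKM in both groups, overlapping MYADM after GDF5. Its RPKM was 22.8, 23.7 and 22.1 in control and 20.7, 21.5 and 21.0 after GDF5. The CMTM6 groups did not overlap, but the log2 change of -0.11 (interval -0.20 to -0.03) missed the threshold (limma adjusted p = 0.0528). Of 12 alternatives 1 called it, that without control replicate 3 (0.0446). With median-of-ratios scaling the change was -0.053, with an interval of -0.14 to 0.03 (limma adjusted p = 0.332). The ends of CMTM6 and CMTM7 share 324 exon bases on opposite strands, 8.64% of the CMTM7 exons. CMTM6 stood far higher than CMTM7 in every library. Since the use of strand in counting is not known, the CMTM7 values may hold reads of CMTM6.

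CMTM3, linked to cadherin and EGF receptor traffic, was at 15.2, 15.2 and 15.8 RPKM in control and at 15.5, 14.4 and 13.2 RPKM after GDF5. The highest GDF5 library lay within the control range. Its log2 change was -0.096, with an interval of -0.23 to 0.03 (limma adjusted p = 0.236). CMTM4, which can stand in for CMTM6 in keeping PD-L1, was at 14.3, 15.1 and 14.4 RPKM in control and at 13.9, 14.04 and 14.1 RPKM after GDF5. The groups nearly touched, and the log2 change was -0.053, with an interval of -0.13 to 0.02 (limma adjusted p = 0.271). With median-of-ratios scaling CMTM4 was at 0.0070, on the other side of 0. PD-L1 itself, CD274, was at 1.28 ± 0.0357 and 1.57 ± 0.293 RPKM (SD, n = 3 each), and its log2 change of 0.17 was not called (limma adjusted p = 0.204).

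**Figure D2:**
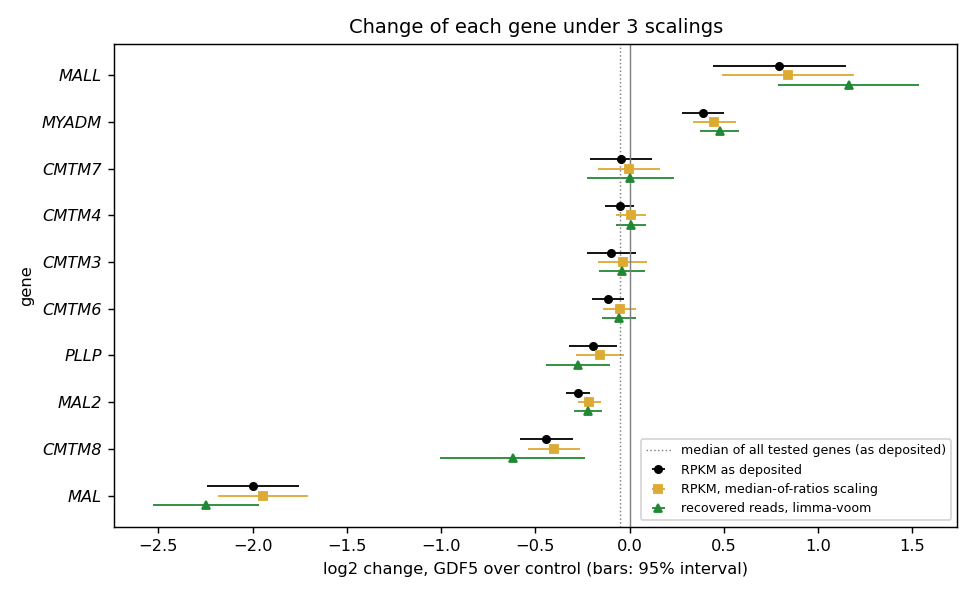
Log2 change of each gene (GDF5 over control) with its 95% interval, from the deposited RPKM, from RPKM with median-of-ratios scaling and from recovered reads. MAL lies between -2.25 and -1.94 in the 3 estimates, MALL and MYADM stay above 0, and the intervals of CMTM3, CMTM4 and CMTM7 include 0 in all 3.

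The order of levels differed between the groups, in part through the fall of MAL, for which it was picked. In control MAL2 was highest at 42.3 RPKM and CMTM6 next at 22.9 RPKM, each apart from its neighbour in every library. MAL, MYADM and CMTM3 followed at 16.2, 15.8 and 15.4 RPKM, with overlapping ranges, and CMTM4 at 14.6 RPKM lay just below CMTM3. A gap separated these from CMTM8, CMTM7, MALL and PLLP at 1.49 to 2.31 RPKM, where each neighbour overlapped the next. After GDF5 MYADM reached the range of CMTM6 (21.0 against 21.1 RPKM), and MAL stood seventh of the 10, overlapping MALL. The exon length implied by the RPKM was 117% of that in GENCODE 29 for MYADM, 87.4% for CMTM6 and 82.8% for MALL. Close places in the order, such as these, depend on the length used. The 10 genes together summed to 133.1 to 135.6 RPKM in control and to 113.7 to 118.7 RPKM after GDF5. MAL made up 10.3 to 13.2% of that sum in control and 2.45 to 3.09% after GDF5.

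**Figure D3:**
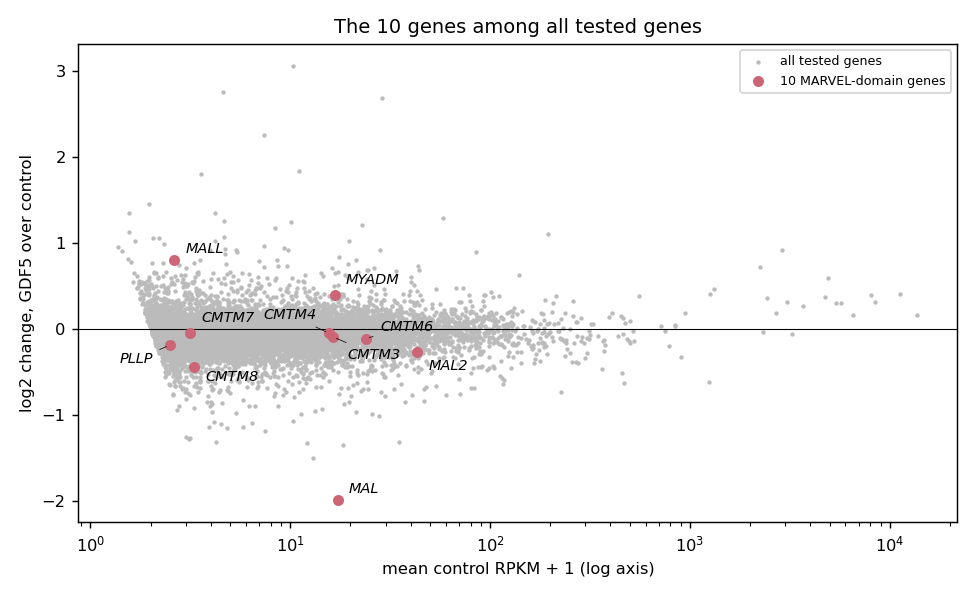
Log2 change against mean control RPKM + 1 (log axis) for all 12476 tested genes in grey and the 10 genes in red. MAL is the lowest point of the plot at -2.00, while the CMTM genes other than CMTM8 lie within the main cloud.

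The genes whose pattern over the 6 libraries was most like that of MAL were chosen by Pearson's r of log2(RPKM + 1) among 233 named genes with a log2 change of -0.5 or lower. They were CEP250, a centrosome linker protein (r = 0.998), EFHD2, a calcium-binding actin regulator (0.997), ATP11A, a phospholipid flippase (0.997), STK32B, a kinase (0.996), and PLAAT4, a phospholipid-modifying enzyme (0.996). The 6 points fall into the 2 groups, so r mostly reflects the group difference, and it is a description. CEP250 went from 13.6 to 9.22 RPKM and PLAAT4 from 22.0 to 13.1 RPKM, both far less than MAL in fold.

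Most other MARVEL-domain genes were too low to test. Of 17 listed (the rest of the CMTM family, MARVELD1 to MARVELD3, occludin and the synaptophysin and synaptogyrin genes) 7 were tested, and 1, SYNGR2, a synaptogyrin found outside neurons, fell, by 0.17 on the log2 scale (limma adjusted p = 0.0374). Over all tested genes 17.5% fell. SYNGR2 went from 20.2 ± 1.21 to 17.9 ± 0.426 RPKM (SD, n = 3 each). Its call held in 3 of 12 alternatives and ended in the others, among them median-of-ratios scaling (limma adjusted p = 0.134). CMTM1 had the largest log2 change of the 7, 0.33, from 5.05 ± 1.16 to 6.55 ± 0.790 RPKM, with overlapping groups (limma adjusted p = 0.117), and it was called on recovered reads (0.0245) and without control replicate 3 (0.0208). The median log2 change of the 7 was -0.074. The other 10 were below the tested level or absent from the table, occludin among them at 0.666 ± 0.0816 and 0.484 ± 0.0078 RPKM, with the groups apart.

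Of 13 tested raft scaffolds 8 fell and 1 rose, with a median of -0.119, where 17.5% of all tested genes fell and 7.48% rose. Without control replicate 1 or 2 or GDF5 replicate 2 or 3, 5 fell and 1 rose. With median-of-ratios scaling, which moved the median of all genes from -0.050 to 0.0023, 5 fell and 3 rose, against 9.97% and 12.9% of all genes. CAVIN2, a cavin of the caveolar coat, fell by 0.61 (limma adjusted p = 0.000374), from 4.51 ± 0.253 to 2.61 ± 0.126 RPKM (SD, n = 3 each). FLOT2, a flotillin, fell by 0.34, LGALS3, galectin-3, by 0.28 and CAV2, caveolin-2, by 0.27, each called in all 12 alternatives. ANXA2, an annexin of raft and apical membranes, rose by 0.22 (limma adjusted p = 0.0118), from 66.1 ± 0.509 to 77.4 ± 4.596 RPKM.

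Among 25 tested genes of apical sorting and transcytosis, 9 fell and 1 rose, or 6 and 4 with median-of-ratios scaling, and the median was -0.090. Over all genes the shares were 17.5% and 7.48%, or 9.97% and 12.9% with that scaling, so the 4 that rose are near the share of all genes. RAB17, an epithelial GTPase of the transcytotic route that MAL2 also serves, fell by 0.68 (limma adjusted p = 0.00220). Its RPKM was 4.89, 4.49 and 5.76 in control and 3.01, 2.48 and 2.83 after GDF5, so the groups were well apart. KIFC3, a minus-end kinesin of apical transport, fell by 0.37, and VAMP8, an endosomal SNARE, and TPD52L1, of the family that binds MAL2, each fell by 0.28. RAB8A, a GTPase of apical exocytosis, rose by 0.37 (limma adjusted p = 0.0174), from 7.47 ± 0.306 to 9.96 ± 1.22 RPKM (SD, n = 3 each). The RAB8A call ended in 5 of 12 alternatives, 4 of them with a library left out (0.0509 to 0.0606). TPD52 and INF2, partners of MAL2, had log2 changes of -0.0084 and -0.19 and were not called (limma adjusted p = 0.910 and 0.0726), though INF2 was without GDF5 replicate 1 (0.0404) and TPD52 lay above 0 with median-of-ratios scaling (0.045).

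Candidate partners and cargo were a mixed list of raft-anchored, apical and receptor genes, not all of them established as bound by these proteins. Of 16 tested, 5 fell and 1 rose, or 4 and 2 with median-of-ratios scaling, against the same shares of all genes, and the number that rose was near them. The median was -0.0019, above that of all genes. The apical phosphate transporter SLC34A2 fell by 0.89 (limma adjusted p = 0.000147), from 5.69 ± 0.311 to 2.60 ± 0.236 RPKM (SD, n = 3 each). E-cadherin, CDH1, fell by 0.51, from 1.62 ± 0.0354 to 0.834 ± 0.0255 RPKM, 1.94-fold by the means. The apical mucin MUC1, a MAL2 partner, fell by 0.37, from 2.37 ± 0.0327 to 1.61 ± 0.134 RPKM. The integrin ITGB4 fell by 0.26, from 5.53 ± 0.0322 to 4.44 ± 0.235 RPKM. At levels as low as those of CDH1 and MUC1, log2(RPKM + 1) understates the change. NT5E, the GPI-anchored enzyme CD73, rose by 0.63 (limma adjusted p = 0.000277), from 2.44 ± 0.134 to 4.34 ± 0.193 RPKM. EGFR, the receptor linked to CMTM8, was at 33.4 ± 0.417 and 33.6 ± 0.795 RPKM, with a log2 change of 0.011 (limma adjusted p = 0.809). None of 12 alternatives called EGFR.

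**Figure D4:**
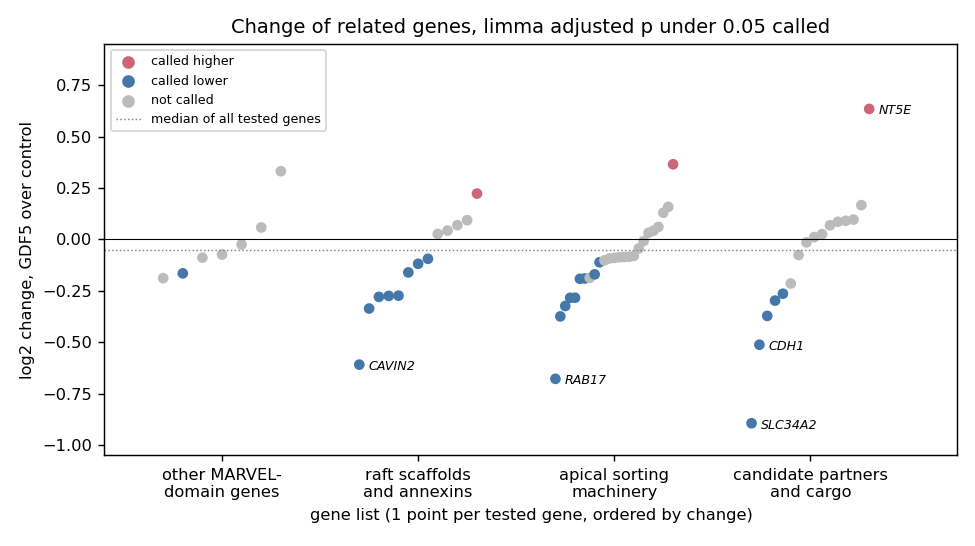
Log2 change (GDF5 over control) of every tested gene in the 4 lists, coloured by limma call at an adjusted p under 0.05, with the median of all tested genes dotted. Blue points outnumber red ones among raft scaffolds (8 and 1) and apical sorting genes (9 and 1), as over all genes (2183 and 933); with median-of-ratios scaling, not drawn, the counts are 5 and 3, 6 and 4, and 1242 and 1606. SLC34A2 is lowest at -0.89.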

How the data were processed

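The authors aligned to GRCh38, and HISAT2 and DESeq2 are named without versions, per the submitters' processing notes. The read counter, its annotation and any filters are not stated by these notes. The authors deposited RPKM per library, as the values show, since the header names no unit. They also deposited a mean signal per group, a log2 fold change, a raw p-value and an adjusted p-value, per the file headers. The adjusted p-value is filled for 34156 of the 34157 genes. All of these columns come from the authors. The columns are quoted only as the authors' deposited table. Groups and replicate numbers were read from the titles.

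Genes with a mean of at least 1 RPKM were tested, 12476 of 34157, on log2(RPKM + 1), which understates low genes, with limma 3.58.1 in R 4.3.3 (intensity trend, two-sided, Benjamini-Hochberg over all tested genes, threshold 0.05). Reads were recovered from the RPKM steps and group means. Of 64600 low values (under 20 reads) 100% came out whole to within 0.1, and 63.7% were even, so both mates may often have been counted. They served for depth and a limma-voom alternative. Genes were placed with GENCODE 29, which holds 96.9% of the identifiers. Members, lists, named-gene rule (up to 4 called genes per list and direction) and tests were chosen with earlier results of these data known; CD274, CMTM1, EGFR, INF2, TPD52 and occludin, and the marker genes, were named after their values were seen.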

Additional observations from a re-analysis of the deposited data

How the results depend on the processing

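MAL kept its sign in all 12 alternatives. Its log2 change was -2.26 with a pseudocount of 0.1, -2.25 with limma-voom on recovered reads, and -2.11 to -1.93 without 1 library. Without a filter 1812 genes were called and 3 of the 9 relatives; at an adjusted p under 0.01 the counts were 1285 genes, 3 relatives and 15 listed genes, against 3116, 5 and 26. Leaving out each library gave 1763 to 3099 genes, 4 to 5 relatives and 18 to 26 listed genes; the lower gene counts came without GDF5 replicate 2 (1763), GDF5 replicate 3 (1869) or control replicate 1 (2074). Scaling by median of ratios gave 1606 genes higher and 1242 lower, against 933 and 2183. In the order of levels 6 of the 10 places held another gene in GDF5 than in control libraries. Part of this is the fall of MAL, for which it was picked, since MYADM, CMTM3 and CMTM4 kept their order and moved up past it. The rest lay among CMTM8, CMTM7 and MALL, whose neighbours overlapped in control.

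Same-numbered libraries did not deviate together from their group means (r = -0.037, 0.057 and -0.031). With 3 libraries per group this cannot show whether the numbers pair them, and the labels do not say. A replicate block left 2167 genes, 4 relatives and 20 listed genes called. CMTM8 rests on 111 reads per library on average.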
